A study of Homo sapiens with 12 samples.

Results

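The histone cluster genes were taken as every probe of the array table whose gene name starts with HIST1H, HIST2H, HIST3H or HIST4H. This rule gave 75 probes for 70 gene names among the 47228 probes that remained after the spike-in controls were set aside. Linker histone H1 had 6 of these probes, H2A 19, H2B 21, H3 14 and H4 15. By cluster, 59 probes belonged to HIST1, 12 to HIST2, 3 to HIST3 and 1 to HIST4.

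The series measured mRNA levels in the MIA PaCa-2 and Capan-1 lines, established human pancreatic ductal adenocarcinoma (PDAC) cells, after loss of focal adhesion kinase (FAK, encoded by PTK2), a kinase and scaffold of integrin signalling. Each line carried a tet-on pLKO hairpin vector with puromycin resistance, and the hairpin was a scrambled control (shCtrl) or one of the FAK hairpins sh1209 and sh1319. All 6 groups, controls included, thus shared the vector, puromycin selection (3.5 µg/ml for MIA PaCa-2 and 1.5 µg/ml for Capan-1) and, by the methods, 50 ng/ml doxycycline for 96 hours. Each group had 2 arrays, 12 in all, and whether the stable lines were pools or clones is not given in the sources used here. The labels call the replicates duplicates without saying that they came from separate cultures, so p-values measure only the spread between these samples, which may be technical.

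Core histones H2A, H2B, H3 and H4 form the nucleosome around which DNA is wound, and H1 binds the linker DNA between nucleosomes. The clustered genes encode the replication-dependent supply: they lack introns, are transcribed mainly in S phase, and their mRNAs normally end in a stem-loop bound by SLBP in place of a poly(A) tail. The array kit makes its labelled RNA with an oligo(dT) primer, which favours polyadenylated mRNA, so a signal here is not a measure of all histone mRNA. Some members, among them HIST1H1C, HIST1H2AC, HIST1H2BC, HIST1H2BD, HIST1H2BJ, HIST1H2BK and HIST2H2BE, are known also to make polyadenylated transcripts, and these 7 genes were followed as a list.

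Promoters of some members named below are shown, but none was found for HIST1H4C. The part of these promoters in the changes was not tested. A current symbol was found for 65 of the 70 names and a RefSeq promoter window (GRCh38.p14, 250 bases before to 50 bases after the start) for 60 of them, with 64 windows in all since 4 genes had 2 listed starts. The 250 bases before the start are printed 5′ to 3′ on the gene's strand, from the window listed first. Capitals mark TATAAA (the TATA box), CCAAT (the CCAAT box) and ATTTGCAT (the octamer), each read on both strands.
HIST1H1C: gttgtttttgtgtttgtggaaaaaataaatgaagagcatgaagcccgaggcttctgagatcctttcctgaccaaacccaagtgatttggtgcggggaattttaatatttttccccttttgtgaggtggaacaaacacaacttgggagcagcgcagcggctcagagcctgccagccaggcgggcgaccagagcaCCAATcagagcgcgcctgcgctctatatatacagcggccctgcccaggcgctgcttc
HIST1H2AC: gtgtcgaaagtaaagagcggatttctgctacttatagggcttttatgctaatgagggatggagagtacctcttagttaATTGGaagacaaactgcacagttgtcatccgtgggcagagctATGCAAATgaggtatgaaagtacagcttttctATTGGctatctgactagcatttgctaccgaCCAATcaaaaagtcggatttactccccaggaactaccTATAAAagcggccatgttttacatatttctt
HIST2H2AA3: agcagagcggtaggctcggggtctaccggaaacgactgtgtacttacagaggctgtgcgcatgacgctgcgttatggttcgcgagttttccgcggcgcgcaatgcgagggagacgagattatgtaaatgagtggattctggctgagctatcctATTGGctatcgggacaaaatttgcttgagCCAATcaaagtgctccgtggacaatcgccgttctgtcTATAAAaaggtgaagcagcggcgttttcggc
HIST1H2BD: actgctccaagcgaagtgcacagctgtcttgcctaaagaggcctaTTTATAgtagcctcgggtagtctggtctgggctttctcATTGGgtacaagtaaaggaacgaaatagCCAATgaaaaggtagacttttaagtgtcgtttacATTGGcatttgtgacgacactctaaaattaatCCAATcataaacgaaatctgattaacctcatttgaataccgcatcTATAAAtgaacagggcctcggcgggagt
HIST1H2BK: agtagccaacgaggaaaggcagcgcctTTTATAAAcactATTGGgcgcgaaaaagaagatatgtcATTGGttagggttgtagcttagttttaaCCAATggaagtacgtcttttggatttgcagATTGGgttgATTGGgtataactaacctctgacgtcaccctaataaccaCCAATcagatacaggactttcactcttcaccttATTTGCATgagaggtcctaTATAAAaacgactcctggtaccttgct
HIST2H2BE: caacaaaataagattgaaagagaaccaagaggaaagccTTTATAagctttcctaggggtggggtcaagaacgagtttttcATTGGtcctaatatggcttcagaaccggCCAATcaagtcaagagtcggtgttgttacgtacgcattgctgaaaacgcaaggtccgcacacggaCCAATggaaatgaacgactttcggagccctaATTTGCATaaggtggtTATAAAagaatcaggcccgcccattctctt
HIST1H4K: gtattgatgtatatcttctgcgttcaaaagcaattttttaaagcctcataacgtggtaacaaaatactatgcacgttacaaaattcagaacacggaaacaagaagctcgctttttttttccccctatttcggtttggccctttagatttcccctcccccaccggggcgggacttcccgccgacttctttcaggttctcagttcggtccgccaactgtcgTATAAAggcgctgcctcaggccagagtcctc

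The HIST1H1C window was chr6:26056471-26056720 on the minus strand. The HIST1H2AC window was chr6:26123922-26124171 on the plus strand. The HIST2H2AA3 window was chr1:149842751-149843000 on the minus strand. The HIST1H2BD window was chr6:26157871-26158120 on the plus strand. The HIST1H2BK window was chr6:27146859-27147108 on the minus strand. The HIST2H2BE window was chr1:149886683-149886932 on the minus strand. The HIST1H4K window was chr6:27831561-27831810 on the minus strand. The TATAAA letters began 27 to 31 bases before the start in 6 of these 7 windows and were not found in that of HIST1H1C. Only these exact letters were sought, so the tatatata stretch printed for HIST1H1C was not counted. On both strands and over the whole windows, TATAAA was in 67.2% of the 64 histone windows and in 11.5% of all 35116 windows of the table. CCAAT was in 84.4% of histone windows against 34.6% of all. It was in all windows of H1, H2A, H2B and H3 but in 3 of the 13 H4 windows, and that of HIST1H4K held none. The octamer was in 34.4% of histone windows against 1.77% of all, in 11 of 16 H2A and 10 of 15 H2B windows and in 1 of the 14 H3 windows. Matches in HIST1H2BK overlap where TTTATAAA reads as TATAAA on either strand. Among the 60 names with a window, members of at least 8 H2A and H2B pairs lie head to head, so their windows are largely the same DNA: HIST2H2BE and HIST2H2AC share 265 of 300 bases, and HIST1H2BJ and HIST1H2AG share 253. Pairs with a gene that had no window, such as HIST1H2BC, could not be found.

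The arrays were close in brightness. The median intensity per array was 87.7 to 97 on the deposited linear scale, 16259 to 19814 probes were detected (detection p below 0.05), and the number of arrays limits the precision. Between 31 and 51 of the 75 histone probes were detected per array. The lowest count was on an array of MIA PaCa-2 with sh1209 and the highest on an array of MIA PaCa-2 with sh1319. KRT8, KRT18 and KRT19 were detected in the shCtrl arrays of both lines, and EPCAM (probe 1690553) and CDH1 in the shCtrl arrays of Capan-1 only. That EPCAM probe was also detected, near the floor, in MIA PaCa-2 with sh1209 (4.66 and 4.80). MIA PaCa-2 with shCtrl showed VIM at 13.21 on the log2 scale. Of the leukocyte, endothelial and fibroblast markers, LYZ was bright in Capan-1 with shCtrl (12.13) and COL3A1 in MIA PaCa-2 with sh1209 (7.75) and sh1319 (7.47) but not detected with shCtrl. PECAM1 and VWF reached group means of 5.30 and 4.91 in Capan-1 with sh1209. PTPRC, CD3E, CDH5, COL1A1, DCN and the mesenchymal ZEB1 lay near or below the lowest detected level, 4.55 to 4.74 by array. The part of these markers in the results was not tested. In cultures, fewer cells of a kind (such as cells in S phase) and less RNA per cell cannot be told apart.

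PTK2 was measured first to check the labels. Its bright probe (450253) averaged 9.46 ± 0.01 (SD, n = 2, log2 normalized intensity) in MIA PaCa-2 with shCtrl, 7.21 ± 0.09 with sh1209 and 6.97 ± 0.07 with sh1319. Capan-1 gave 10.26 ± 0.13, 9.65 ± 0.02 and 8.48 ± 0.01. The PTK2 changes were thus -2.24 and -2.48 on the log2 scale in MIA PaCa-2 (adjusted p = 1.5e-07 and 5.2e-08) but -0.61 with sh1209 in Capan-1 (adjusted p = 0.0036), where sh1319 gave -1.78 (adjusted p = 5.9e-06). The sh1209 change in Capan-1 was not called under median scaling (-0.42, adjusted p = 0.23). A dim second PTK2 probe (2680750) was not called in any of these 4 comparisons.

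Of the 75 histone probes, 54 from 50 genes were detected on at least 2 arrays and were tested, 72% against 51.3% of all probes. The members that were tested were 4 probes of H1, 14 of H2A, 14 of H2B, 12 of H3 and 10 of H4. On all 12 arrays 22 probes were detected. On no array 15 were detected, among them HIST1H1T (the testis H1), HIST1H2AA and HIST1H2BA (testis forms), HIST3H3, HIST1H4G and the dimmest HIST1H2BD probe (6960403), and 6 were detected on 1 array only. The passing of this filter depends on the group in which a member is bright, so the counts below describe only the 54 tested probes.

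The histone changes against shCtrl differed between the hairpins and between the cell lines. In MIA PaCa-2, 23 histone probes rose and 1 fell with sh1319, while 2 rose and 9 fell with sh1209. In Capan-1, 9 rose and 1 fell with sh1209, while 1 rose and 2 fell with sh1319. The background over all 24207 tested probes was 12.2% higher and 12.1% lower with sh1319 and 9.05% and 8.99% with sh1209 in MIA PaCa-2. In Capan-1 it was 8.14% and 8.69% with sh1209 and 6.95% and 6.77% with sh1319. The 23 rises were 42.6% of the histone probes, and the other counts were 3.7% and 16.7%, 16.7% and 1.85%, and 1.85% and 3.7%. The median log2 change of the 54 probes was 0.38, -0.13, 0.19 and -0.06 in that order, against -0.01, 0.01, -0.01 and 0 over all probes.

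**Figure D1:**
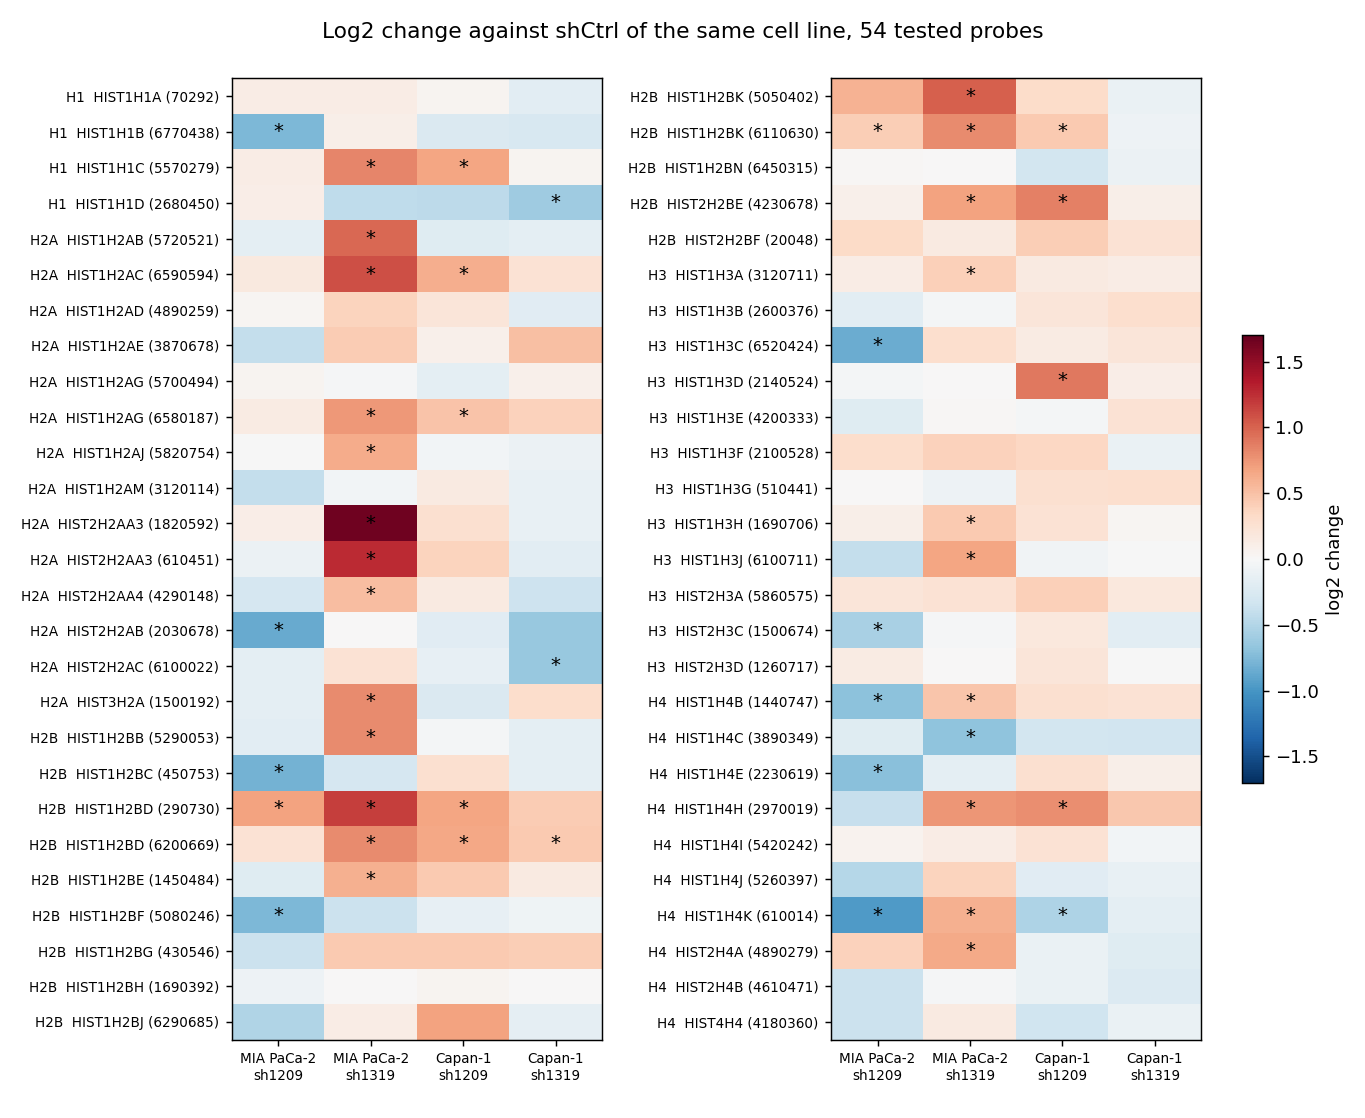
Log2 change of each of the 54 tested histone probes (rows, with class, gene name and probe number) against shCtrl of the same cell line, for both hairpins in each line (columns). Red is higher, blue is lower, and an asterisk marks an adjusted p below 0.05; the column of sh1319 in MIA PaCa-2 holds 23 marked rises and that of sh1209 in MIA PaCa-2 9 marked falls.

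Some of these counts rest on few arrays or on the scaling. The 23 rises and 1 fall with sh1319 in MIA PaCa-2 were 18 and 0 under median scaling, and 13 and 1 when arrays were scaled to the median of probes detected on all of them. Median scaling moved the share of rises among all called probes from 50.3% to 66.6% for sh1319 in MIA PaCa-2, from 48.4% to 81.7% for sh1209 in Capan-1 and from 50.6% to 85.3% for sh1319 in Capan-1, where it moved the median change of all probes to 0.11 and that of the histone probes to 0.10. Scaling to the median of probes detected on all arrays put the median of all probes at -0.13 for both hairpins in Capan-1, with histone medians of 0.14 for sh1209 and -0.14 for sh1319. For sh1209 in Capan-1 the count of 10 was 4 without Capan-1 sh1209 replicate 1 or shCtrl replicate 2 and 5 without sh1209 replicate 2. For sh1319 in Capan-1 the count of 3 was 0 without either shCtrl array or sh1319 replicate 2, and the split of 1 higher and 2 lower was 3 and 1 under median scaling. For sh1209 in MIA PaCa-2 the 11 calls were 7 without its replicate 1, and the split of 2 and 9 was 1 and 2 when scaled to the median of probes detected on all arrays.

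Over all 4 hairpin and cell line comparisons together (the mean of the 4 changes), 12 histone probes rose and 4 fell, against a background of 12.5% higher and 12.7% lower. Their median change was 0.10, against 0 over all probes. The rises took 22.2% of the histone probes. Of these rises, 7 were among the 9 tested probes of the polyadenylated list. The 45 histone probes outside that list had 5 rises (11.1%) and 4 falls (8.89%). For all 54 probes the split of 12 and 4 was 15 and 0 under median scaling, and 10 and 1 with scaling over the probes detected on all arrays. Median scaling also moved the share of rises among all called probes from 49.6% to 78%. Without Capan-1 shCtrl replicate 1 or replicate 2, 10 probes in all were called. The 4 comparisons share the 2 shCtrl arrays within a line, so they are not independent of each other.

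H2B, whose members form a dimer with H2A, held 5 of the 12 combined rises. They were 35.7% of its 14 tested probes, against 28.6% for H2A and 12.5% of all probes. All 5 were probes of HIST1H2BD, HIST1H2BK and HIST2H2BE, which are in the polyadenylated list. HIST1H2BD (probe 290730) read 6.61 and 6.28 in MIA PaCa-2 with shCtrl, 7.18 and 7.08 with sh1209, and 7.66 and 7.59 with sh1319. In Capan-1 the same probe read 10.11 and 10.06, then 10.84 and 10.67, then 10.48 and 10.56. Every knockdown array lay above both shCtrl arrays of its line. Its changes were 0.68 ± 0.13 (SE), 1.18 ± 0.13, 0.67 ± 0.13 and 0.43 ± 0.13 log2 in the order MIA PaCa-2 sh1209 and sh1319, Capan-1 sh1209 and sh1319, and the first 3 were called (adjusted p = 0.0039, 5.5e-05 and 0.0052). The combined change was 0.74 ± 0.08, or 1.67-fold (adjusted p = 5.8e-05), the largest of any histone probe. The second probe of this gene (6200669) read 6.41 and 6.37 with shCtrl, 6.66 and 6.63 with sh1209 and 7.10 and 7.28 with sh1319 on the MIA PaCa-2 arrays, and 9.44 and 9.32 with shCtrl, 10.13 and 9.95 with sh1209 and 9.84 and 9.82 with sh1319 on those of Capan-1, the same order of groups. Its changes were 0.25, 0.80, 0.66 and 0.45, and it was the one histone probe that rose with sh1319 in Capan-1 (adjusted p = 0.026), a call that was lost under 6 of 19 alternatives.

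HIST1H2BK, another H2B with a polyadenylated form and one of the 4 brightest members, moved in 3 of the 4 comparisons. Probe 6110630 read 9.91 and 9.87 in MIA PaCa-2 with shCtrl, 10.37 and 10.25 with sh1209 and 10.72 and 10.64 with sh1319. The Capan-1 arrays read 11.86 and 11.91 with shCtrl, 12.34 and 12.31 with sh1209 and 11.84 and 11.76 with sh1319, where only the sh1319 arrays did not lie above the controls. The changes were 0.42, 0.80, 0.44 and -0.08, the first 3 called (adjusted p = 0.018, 0.00023 and 0.016). Its dimmer probe (5050402) read 6.87 and 7.57 with shCtrl, 7.67 and 7.95 with sh1209 and 8.21 and 8.26 with sh1319 on the MIA PaCa-2 arrays, and 9.50 and 9.41 with shCtrl, 9.78 and 9.76 with sh1209 and 9.33 and 9.36 with sh1319 on those of Capan-1. It gave changes of 0.59, 1.01, 0.31 and -0.11, of which the change with sh1319 in MIA PaCa-2 was called (adjusted p = 0.0021).

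HIST2H2BE, an H2B gene of the HIST2 cluster, was close to the detection floor in MIA PaCa-2 and clear in Capan-1. It read 4.68 and 4.39 in MIA PaCa-2 with shCtrl, on neither of which it was detected, 4.55 and 4.68 with sh1209 and 5.46 and 4.97 with sh1319. The Capan-1 arrays read 7.83 and 7.43 with shCtrl, 8.48 and 8.49 with sh1209 and 7.69 and 7.77 with sh1319. With sh1319 in MIA PaCa-2 it was at least 1.42-fold higher (adjusted p = 0.017). Such a bound, used wherever a group was not detected, divides the bright group's mean by the dim group's mean of its own signal or the lowest detected signal of each array, whichever was higher. With sh1209 in Capan-1 it rose by 0.85 ± 0.18 (adjusted p = 0.0076), and with sh1319 there the change was 0.10.

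The remaining H2B genes did not follow one course. HIST1H2BC, HIST1H2BF and, below the threshold, HIST1H2BJ and HIST1H2BG had negative changes with sh1209 in MIA PaCa-2. HIST1H2BC read 5.19 and 5.55 with shCtrl there and 4.41 and 4.72 with sh1209, a fall of 0.80 on the log2 scale (adjusted p = 0.013), and 5.32 and 4.85 with sh1319. The Capan-1 arrays read 5.41 and 5.44 with shCtrl, 5.89 and 5.51 with sh1209 and 5.32 and 5.18 with sh1319, with no call. HIST1H2BF read 5.03 and 5.43 with shCtrl, 4.30 and 4.64 with sh1209 and 4.70 and 5.01 with sh1319 on the MIA PaCa-2 arrays. With sh1209 it was not detected and was at least 1.48-fold lower (adjusted p = 0.0094). All its Capan-1 values lay between 4.78 and 5.02. It also fell in the combined comparison (-0.33 ± 0.10, adjusted p = 0.035), a call that 12 of 19 alternatives lost. HIST1H2BB and HIST1H2BE rose with sh1319 in MIA PaCa-2, by 0.81 and at least 1.34-fold.

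**Figure D2:**
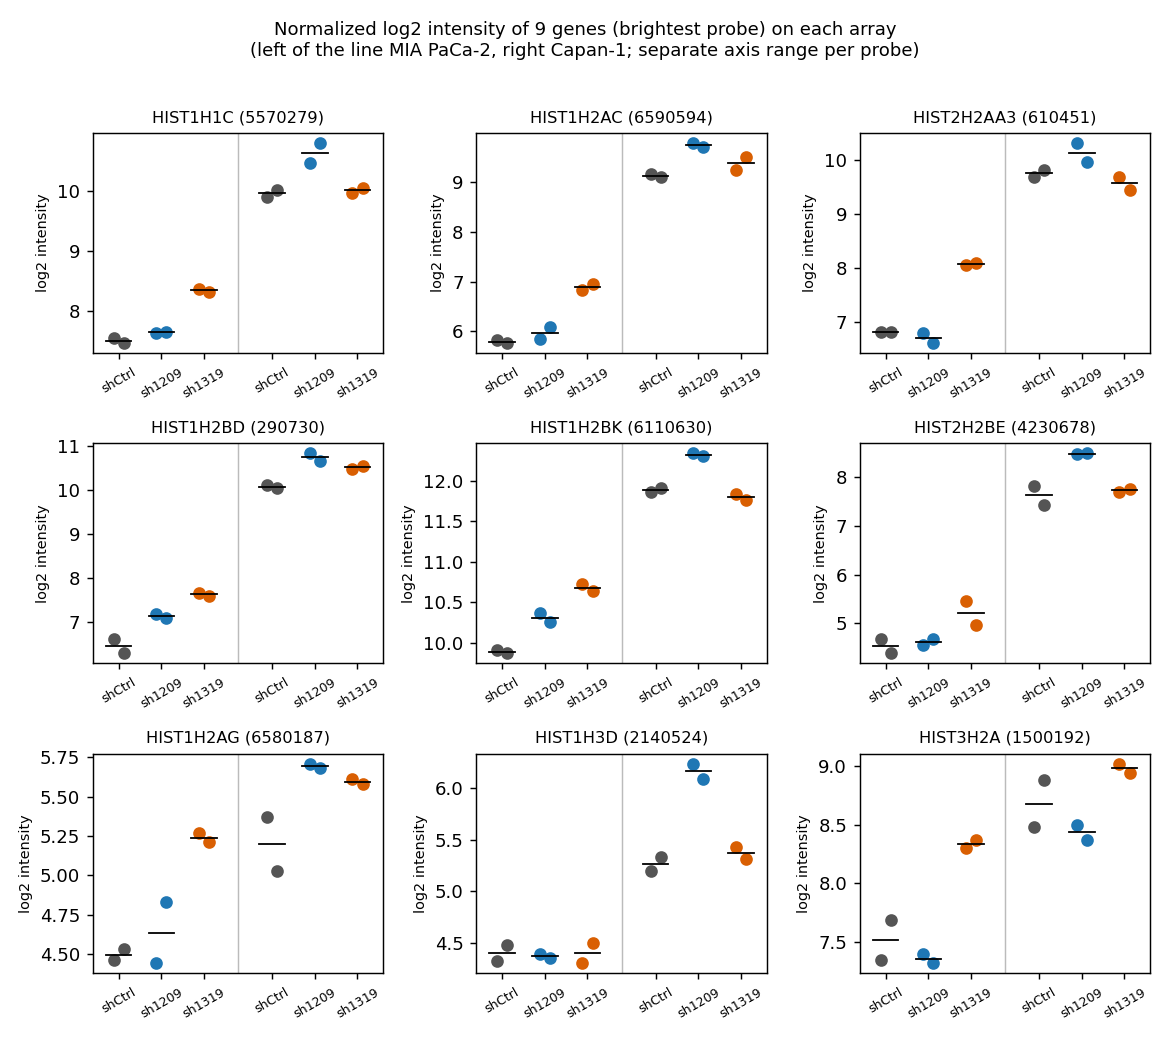
Normalized log2 intensity of 9 histone genes (the brightest probe of each) on each of the 12 arrays (points), by hairpin and cell line, with the group mean as a bar. In MIA PaCa-2 both sh1319 arrays lay above both shCtrl arrays for each gene but HIST1H3D, which stood apart in Capan-1 with sh1209 (6.24 and 6.09).

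H2A held the largest rise with sh1319 in MIA PaCa-2. HIST2H2AA3 (probe 1820592) read 5.72 and 6.10 with shCtrl, 5.85 and 6.19 with sh1209 and 7.70 and 7.43 with sh1319 in MIA PaCa-2. The sh1319 arrays stood clear of the 4 others. The rise was 1.66 ± 0.17, or 3.16-fold (adjusted p = 2.7e-05), and 1.27 ± 0.14 (adjusted p = 5.8e-05) at its second probe (610451), which read 6.81 and 6.81 with shCtrl, 6.80 and 6.61 with sh1209 and 8.06 and 8.09 with sh1319. In Capan-1 the first probe read 9.27 and 9.15 with shCtrl, 9.60 and 9.35 with sh1209 and 9.10 and 9.05 with sh1319, with changes of 0.27 and -0.13 that were not called. The second probe read 9.70 and 9.82 with shCtrl, 10.32 and 9.97 with sh1209 and 9.70 and 9.46 with sh1319 in Capan-1, with changes of 0.38 and -0.18 that were not called either. HIST2H2AA3 and HIST2H2AA4 are near-identical copies whose probes may read each other's transcript, and HIST2H2AA4 (4290148) is among the 4 brightest members. It read 8.28 and 8.23 with shCtrl, 7.88 and 8.05 with sh1209 and 8.79 and 8.75 with sh1319 on the MIA PaCa-2 arrays, and 10.01 and 9.95 with shCtrl, 10.26 and 10.00 with sh1209 and 9.66 and 9.59 with sh1319 on those of Capan-1. Its changes were -0.29, 0.52, 0.15 and -0.35, of which the second was called (adjusted p = 0.0088).

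HIST1H2AC, which also has a polyadenylated form, rose in both lines. It read 5.81 and 5.76 in MIA PaCa-2 with shCtrl, 5.83 and 6.08 with sh1209 and 6.83 and 6.94 with sh1319. Capan-1 read 9.16 and 9.11, then 9.79 and 9.71, then 9.25 and 9.52. The change was 1.10 ± 0.13 with sh1319 in MIA PaCa-2 (adjusted p = 8.6e-05) and 0.62 ± 0.13 with sh1209 in Capan-1 (adjusted p = 0.0076), against 0.17 and 0.25 for the other hairpin in each line. The combined change was 0.54 ± 0.08 (adjusted p = 0.00053).

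HIST1H2AG (probe 6580187) read 4.46 and 4.53 with shCtrl in MIA PaCa-2, not detected, and 5.27 and 5.21 with sh1319, at least 1.44-fold higher (adjusted p = 0.0035). In Capan-1 it read 5.37 and 5.03 with shCtrl, 5.71 and 5.68 with sh1209 and 5.61 and 5.58 with sh1319, and the sh1209 rise of 0.49 was called (adjusted p = 0.045). The second HIST1H2AG probe (5700494) was detected on 2 arrays and gave a combined change of -0.01, so the probes of this gene disagree. HIST1H2BJ, its head-to-head neighbour, changed by -0.51, 0.13, 0.69 and -0.15, of which none was called.

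HIST2H2AB and HIST2H2AC went the other way. HIST2H2AB read 5.57 and 5.44 with shCtrl, 4.50 and 4.80 with sh1209 and 5.62 and 5.41 with sh1319 on the MIA PaCa-2 arrays, and 6.15 and 6.02 with shCtrl, 5.96 and 5.82 with sh1209 and 5.79 and 5.11 with sh1319 on those of Capan-1. With sh1209 in MIA PaCa-2 this was a fall of 0.86 on the log2 scale (adjusted p = 0.01), and its combined change was -0.42 ± 0.12 (adjusted p = 0.024), which median scaling did not call (-0.24, adjusted p = 0.21). HIST2H2AC, also among the 4 brightest, read 9.09 and 8.58 with shCtrl, 8.50 and 8.82 with sh1209 and 9.20 and 8.95 with sh1319 in MIA PaCa-2, with no call. In Capan-1 it read 9.95 and 9.74 with shCtrl, 9.75 and 9.66 with sh1209 and 9.38 and 9.05 with sh1319, and the sh1319 change was a fall of 0.64 (adjusted p = 0.047) that 11 of 19 alternatives did not call. It shares most of its promoter window with HIST2H2BE, which changed by 0.10 there. HIST3H2A read 7.35 and 7.69 with shCtrl in MIA PaCa-2 and 8.30 and 8.37 with sh1319, a rise of 0.81 (adjusted p = 0.0022), and HIST1H2AB was at least 1.78-fold higher (adjusted p = 0.00093) in the same comparison.

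Of the H1 genes, HIST1H1C rose, and others fell or stayed dim. HIST1H1C read 7.55 and 7.47 in MIA PaCa-2 with shCtrl, 7.64 and 7.66 with sh1209 and 8.37 and 8.32 with sh1319, and in Capan-1 9.89 and 10.02, then 10.46 and 10.79, then 9.97 and 10.04. It rose by 0.83 ± 0.13 with sh1319 in MIA PaCa-2 (adjusted p = 0.00056) and by 0.67 ± 0.13 with sh1209 in Capan-1 (adjusted p = 0.0043). HIST1H1D read 5.33 and 4.90 with shCtrl, 5.30 and 5.14 with sh1209 and 4.67 and 4.69 with sh1319 on the MIA PaCa-2 arrays, and 5.12 and 5.02 with shCtrl, 4.71 and 4.56 with sh1209 and 4.64 and 4.29 with sh1319 on those of Capan-1. With sh1319 in Capan-1 this was a fall of 0.60 (adjusted p = 0.03) that 5 of 18 alternatives lost, with a combined change of -0.34 (adjusted p = 0.027). HIST1H1B fell by 0.77 with sh1209 in MIA PaCa-2 (adjusted p = 0.017), from 5.52 and 5.23 to 4.47 and 4.75.

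The H3 probes were mostly dim and 3 of 12 rose with sh1319 in MIA PaCa-2 (25%, against 12.2% of all probes), with a class median of 0.14. They were HIST1H3H (by 0.44), HIST1H3J (by 0.67) and HIST1H3A, which was at least 1.12-fold higher. HIST1H3C read 5.83 and 5.61 with shCtrl in MIA PaCa-2, 4.72 and 5.02 with sh1209 and 5.79 and 6.20 with sh1319, so that sh1209 alone lay apart (a fall of 0.85 on the log2 scale, adjusted p = 0.0043). In Capan-1 it read 4.77 and 4.55 with shCtrl, 4.89 and 4.70 with sh1209 and 4.81 and 4.91 with sh1319, with no call. HIST1H3D read 5.20 and 5.33 with shCtrl in Capan-1, 6.24 and 6.09 with sh1209 and 5.43 and 5.31 with sh1319. Its rise of 0.90 ± 0.12 with sh1209 (adjusted p = 0.00053) was the largest change of a histone probe in Capan-1. On the MIA PaCa-2 arrays it read 4.32 and 4.48 with shCtrl, 4.39 and 4.35 with sh1209 and 4.30 and 4.50 with sh1319, not detected on any of them.

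The H4 genes, most of which encode the same protein and whose copies the probes may not fully separate, changed in both directions. HIST1H4C was the brightest histone probe, with deposited intensities of 9154.1 to 15028.1. It read 13.80 and 13.80 in MIA PaCa-2 with shCtrl, 13.59 and 13.60 with sh1209 and 13.13 and 13.10 with sh1319. The Capan-1 arrays read 13.78 and 13.89, then 13.61 and 13.44, then 13.47 and 13.54. All knockdown arrays lay below the controls of their line. The fall of 0.69 with sh1319 in MIA PaCa-2 (SE 0.11, adjusted p = 0.00073) was the sole fall of a histone probe in that comparison, and the combined change was -0.39 ± 0.07 (adjusted p = 0.0016). Under median scaling these were -0.53 (adjusted p = 0.073) and -0.34 (adjusted p = 0.053).

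HIST1H4K moved in opposite directions with the hairpins in MIA PaCa-2. It read 7.18 and 7.54 with shCtrl, 6.31 and 6.50 with sh1209 and 8.13 and 7.82 with sh1319, 3 groups that did not overlap. The changes were -0.96 ± 0.16 (adjusted p = 0.0015) and 0.61 ± 0.16 (adjusted p = 0.015). The Capan-1 arrays read 7.20 and 7.21, then 6.70 and 6.65, then 7.18 and 6.90. The change of -0.53 with sh1209 there (adjusted p = 0.041) was the sole fall among histone probes, a call that 8 of 19 alternatives lost. Median scaling gave -0.26 (adjusted p = 0.52), the replicate block gave an adjusted p of 0.055, and leaving out any of the 4 arrays compared gave 0.13 to 0.17. HIST1H4B did likewise in MIA PaCa-2 (-0.70, adjusted p = 0.0076, and 0.47, adjusted p = 0.045).

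HIST1H4H rose by 0.75 with sh1319 in MIA PaCa-2 (adjusted p = 0.017) and by 0.79 with sh1209 in Capan-1 (adjusted p = 0.018). It read 5.40 and 5.29 with shCtrl, 5.16 and 4.75 with sh1209 and 5.78 and 6.40 with sh1319 on the MIA PaCa-2 arrays, and 7.68 and 7.47, then 8.47 and 8.27, then 8.09 and 7.98 on those of Capan-1. HIST1H4E read 5.13 and 5.41 with shCtrl, 4.61 and 4.51 with sh1209 and 5.07 and 5.15 with sh1319 on the MIA PaCa-2 arrays, and 5.42 and 5.62 with shCtrl, 5.78 and 5.80 with sh1209 and 5.74 and 5.51 with sh1319 on those of Capan-1. It was detected on neither array of MIA PaCa-2 with sh1209 and was at least 1.52-fold lower there (adjusted p = 0.0037). HIST2H4A read 5.01 and 5.02 with shCtrl, 5.37 and 5.45 with sh1209 and 5.59 and 5.71 with sh1319 in MIA PaCa-2, where both hairpins lay above the controls. The Capan-1 arrays read 8.24 and 8.28 with shCtrl, 8.23 and 8.08 with sh1209 and 8.29 and 7.83 with sh1319. It rose by 0.64 with sh1319 in MIA PaCa-2 (adjusted p = 0.0076), where its near-identical copy HIST2H4B changed by -0.02.

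**Figure D3:**
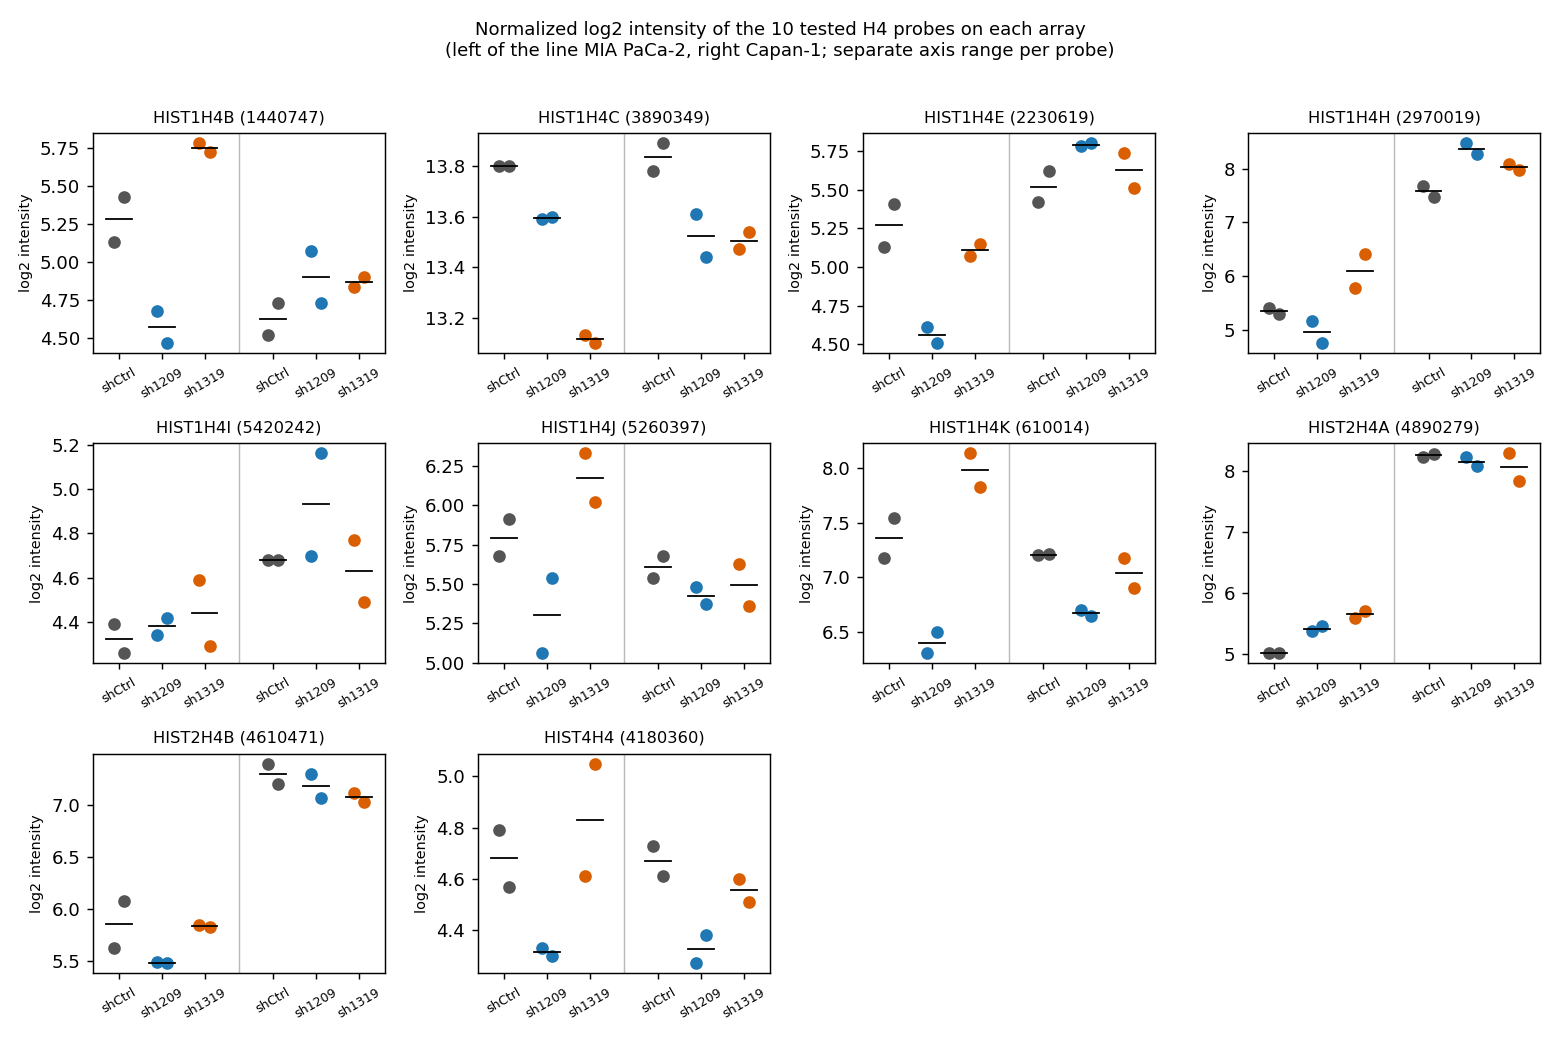
Normalized log2 intensity of the 10 tested H4 probes on each of the 12 arrays (points), by hairpin and cell line, with the group mean as a bar and an axis of its own for each probe. HIST1H4C was lowest in MIA PaCa-2 with sh1319 (13.13 and 13.10), where HIST1H4K was highest (8.13 and 7.82).

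The hairpins were also compared directly within each line. In MIA PaCa-2, 27 of the 54 histone probes were higher with sh1319 than with sh1209 and 2 were lower (HIST1H1D and HIST1H4C), against a background of 11.2% higher and 11.5% lower. The split was 22 and 0 under median scaling, which moved the share of rises among all called probes from 49.4% to 65.3%, and 17 and 1 when scaled to the probes detected on all arrays. The median difference was 0.52, against -0.01 over all probes. HIST1H4K differed by 1.57 ± 0.16 (adjusted p = 2.9e-05), HIST2H2AA3 by 1.54 and 1.37, HIST1H4B by 1.17 (adjusted p = 0.00018) and HIST1H3C by 1.13 (adjusted p = 0.00048). HIST1H4E, not detected with sh1209, was at least 1.36-fold higher with sh1319 (adjusted p = 0.012). The bright PTK2 probe did not pass the threshold between the hairpins in MIA PaCa-2 (a difference of -0.24 ± 0.11, adjusted p = 0.17), while the dim one did (-0.59, adjusted p = 0.021).

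In Capan-1 the direction was the other way: 1 probe (HIST3H2A, 0.55, adjusted p = 0.041) was higher with sh1319 than with sh1209 and 7 were lower, against 5.47% and 5.81% over all probes. The lower ones were HIST1H2BJ (-0.84), HIST1H3D (-0.79), HIST2H2BE (-0.75), HIST1H1C (-0.62), HIST2H2AA3 (610451, -0.56), HIST1H2BK (6110630, -0.52) and HIST2H2AA4 (-0.51). Here the bright PTK2 probe was lower with sh1319 by 1.16 (adjusted p = 6.2e-05), while the dim one was not called (a difference of 0 ± 0.16). The count of 8 was 2 without Capan-1 sh1209 replicate 1 or sh1319 replicate 2, 4 without either of the other hairpin arrays, and 0 higher and 3 lower under both median scalings.

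Whether the change differed between the lines was tested as the change in MIA PaCa-2 minus that in Capan-1. Over the mean of both hairpins 4 histone probes (7.41%) were called, a smaller share than the 14.4% of all probes. HIST2H2AA3 (1820592, 0.82 ± 0.21, adjusted p = 0.022) and HIST2H4A (0.67 ± 0.18, adjusted p = 0.028) had the higher change in MIA PaCa-2, and HIST1H4E (-0.62 ± 0.17, adjusted p = 0.029) and HIST1H3D (-0.52 ± 0.15, adjusted p = 0.043) in Capan-1. HIST1H3D was detected on no MIA PaCa-2 array and HIST1H4E on none of MIA PaCa-2 with sh1209, so the size of their differences is uncertain. None of these 4 was called under median scaling. Scaling to the probes detected on all arrays called 2 histone probes (2 higher and 0 lower), and of these 4 only HIST2H2AA3. Over the 19 alternatives HIST2H2AA3 ranged from 0.45 to 1.01 and HIST2H4A from 0.31 to 0.79. HIST1H4E ranged from -0.76 to -0.22 and HIST1H3D from -0.73 to -0.22. The call was lost under 5, 10, 10 and 15 of the 19 alternatives in that order.

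Since the hairpins moved these genes differently, the same difference was also taken for each hairpin, a choice made after the values were seen. For sh1319, 14 histone probes (25.9%) changed more upward in MIA PaCa-2 and none in Capan-1, against a background of 14% in either direction, with a median of 0.29. HIST2H2AA3 led with 1.79 ± 0.24 (adjusted p = 0.00052) and 1.45, and HIST1H2BK differed by 1.13 and 0.88. Of the 14, HIST1H2AB, HIST1H2AJ, HIST1H2BB and HIST1H3J were not detected in at least 1 of the 4 groups compared, so no size is given for them. For sh1209, 8 probes (14.8%) were called, and the background in either direction was also 14.8%, so their number alone does not set the histone probes apart. All 8 had the lower change in MIA PaCa-2, where over all probes 7.44% were lower and 7.41% higher. The median was -0.26. The 8 were HIST1H2BJ (-1.20), HIST1H4H (-1.18), HIST1H2BC (-1.08), HIST1H3C (-0.99) and HIST1H4B (-0.98), and 3 probes that were not detected in MIA PaCa-2 with sh1209 and get no size here, HIST1H4E, HIST1H3D and HIST1H2BG. The 14 calls were 8 without either Capan-1 shCtrl array and 9 without sh1319 replicate 2 of Capan-1. The 8 calls were 3 without Capan-1 shCtrl replicate 2, 4 without Capan-1 sh1209 replicate 1 and 5 without MIA PaCa-2 sh1209 replicate 2.

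The largest histone differences lay between the cell lines. With shCtrl, 21 histone probes were higher and 4 lower in Capan-1 than in MIA PaCa-2, against 19.6% and 22.5% over all probes, and the median difference was 0.32 against -0.04. When scaled to the probes detected on all arrays the split was 22 and 1. The largest difference was HIST1H2BD (290730), at 3.64 ± 0.13 or 12.5-fold (adjusted p = 6.9e-10). HIST1H2AC differed by 3.35 ± 0.13, or 10.2-fold (adjusted p = 1.4e-09), HIST2H2AA3 (1820592) by 3.30 ± 0.17 (adjusted p = 1.6e-08) and HIST2H4A by 3.25 ± 0.15 (adjusted p = 4.9e-09). HIST2H2BE, not detected in MIA PaCa-2 with shCtrl, was at least 7.58-fold higher (adjusted p = 5.2e-08), and its fitted value with no background correction was 1.53. That setting also lowered HIST1H2BD to 2.86, HIST1H2AC to 2.31, HIST2H2AA3 to 2.32 and HIST2H4A to 1.86, with each still called. In the HIST2 cluster 8 of 12 tested probes were higher (66.7%, against 19.6% of all probes) and none lower.

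Members lower in Capan-1 were HIST1H3C (-1.06, adjusted p = 0.00026), HIST1H1B (-0.73, adjusted p = 0.0089), HIST1H4B (-0.66, adjusted p = 0.0041) and HIST1H2AM (-0.51, adjusted p = 0.028). The brightest probe, HIST1H4C, differed by 0.03 ± 0.11. Between near-identical copies the differences were unequal: 3.25 for HIST2H4A against 1.45 for HIST2H4B, and 3.30 and 2.95 for HIST2H2AA3 against 1.73 for HIST2H2AA4.

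**Figure D4:**
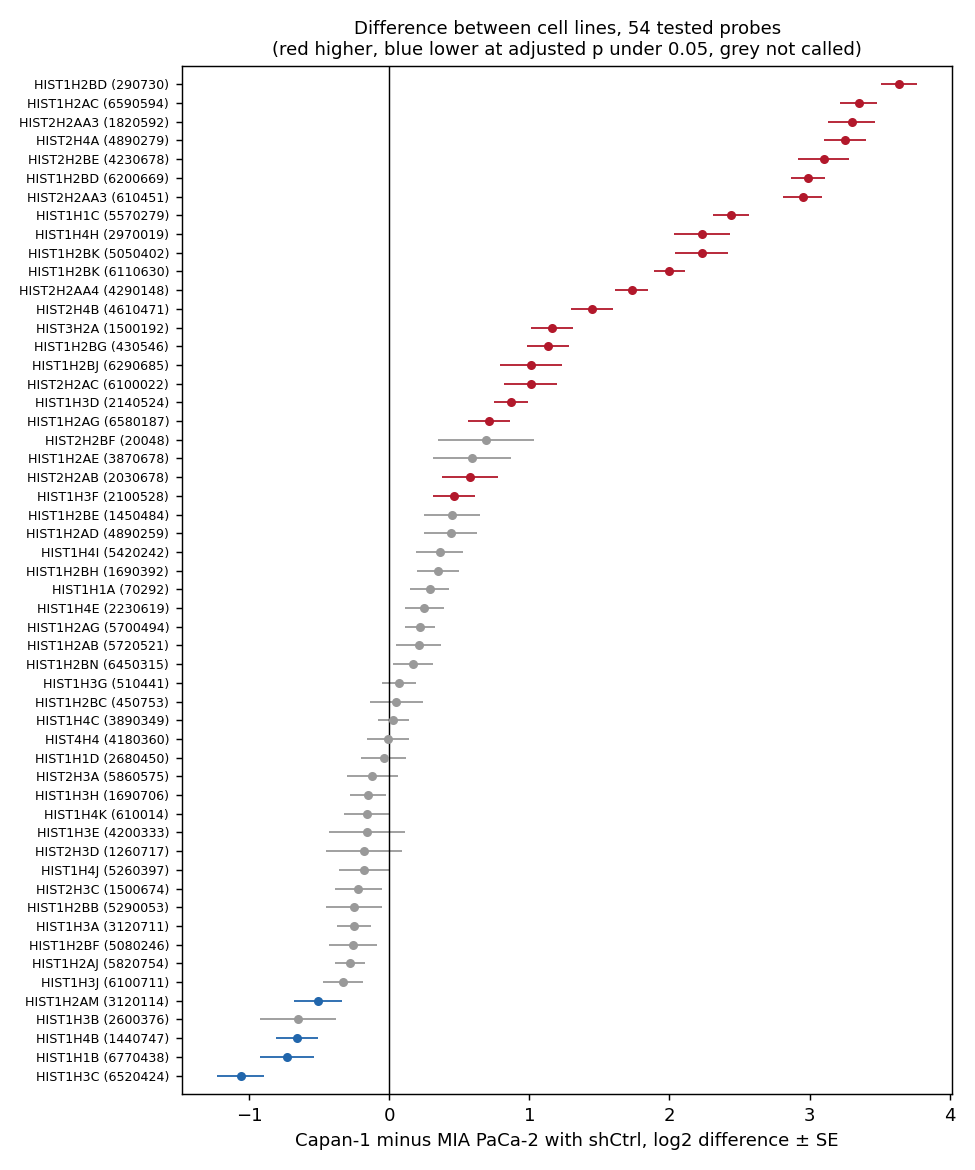
Log2 difference with its SE (points and bars) between Capan-1 and MIA PaCa-2 with shCtrl for the 54 tested histone probes, ordered by size, with called probes in red (higher in Capan-1) or blue (lower). The 21 higher probes reach 3.64 and the 4 lower probes -1.06.

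The members with known polyadenylated transcripts had 9 tested probes. In the combined comparison 7 of them rose and none fell, with a median change of 0.43, against 0.10 for all 54 histone probes. The 7 rises were 77.8% of the list, against 12.5% of all probes. They rose in 7 of 9 cases with sh1319 in MIA PaCa-2 (median 0.80), in 6 with sh1209 in Capan-1 (0.66), in 2, with 1 fall, with sh1209 in MIA PaCa-2 (0.17) and in 1 with sh1319 in Capan-1 (0.05). These rises were 77.8%, 66.7%, 22.2% and 11.1% of the list, where 12.2%, 8.14%, 9.05% and 6.95% of all probes rose. In the same order, the 45 histone probes outside the list had 16 rises (35.6%) and 1 fall, then 3 (6.67%) and 1, then 0 and 8, then 0 and 2. Between the lines 8 of 9 (88.9%, against 19.6% of all probes) were higher in Capan-1, with a median difference of 2.44. The members not called were HIST1H2BC, with 0.05 between the lines and a combined change of -0.25, and, in the combined comparison, HIST1H2BJ (0.04). This list was written with earlier results of these data known, so its counts only describe these genes.

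More S phase genes fell than rose. The S phase list (a common set of replication genes, 60 tested probes for 41 genes) held 34 falls (56.7%, against 12.1% of all probes) and no rise with sh1319 in MIA PaCa-2, with a median of -0.43. The other counts were 12 falls and 4 rises with sh1209 in MIA PaCa-2, 10 and 1 with sh1209 in Capan-1 and 12 and 0 with sh1319 in Capan-1, where the falls were 20%, 16.7% and 20% against 8.99%, 8.69% and 6.77% of all probes. In the combined comparison 25 fell (41.7%, against 12.7%) and 1 rose, led by GMNN (geminin, an inhibitor of origin licensing, -1.08), CCNE2 (cyclin E2, -1.05), PRIM1 (a DNA primase subunit, -0.93 and -0.89) and TYMS (thymidylate synthase, -0.89). Between the hairpins in MIA PaCa-2, 20 were lower with sh1319 (33.3%, against 11.5%) and none higher. The part of the S phase level in the histone changes was not tested. Counts of this list and of the gene lists below are given under the main scaling only.

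**Figure D5:**
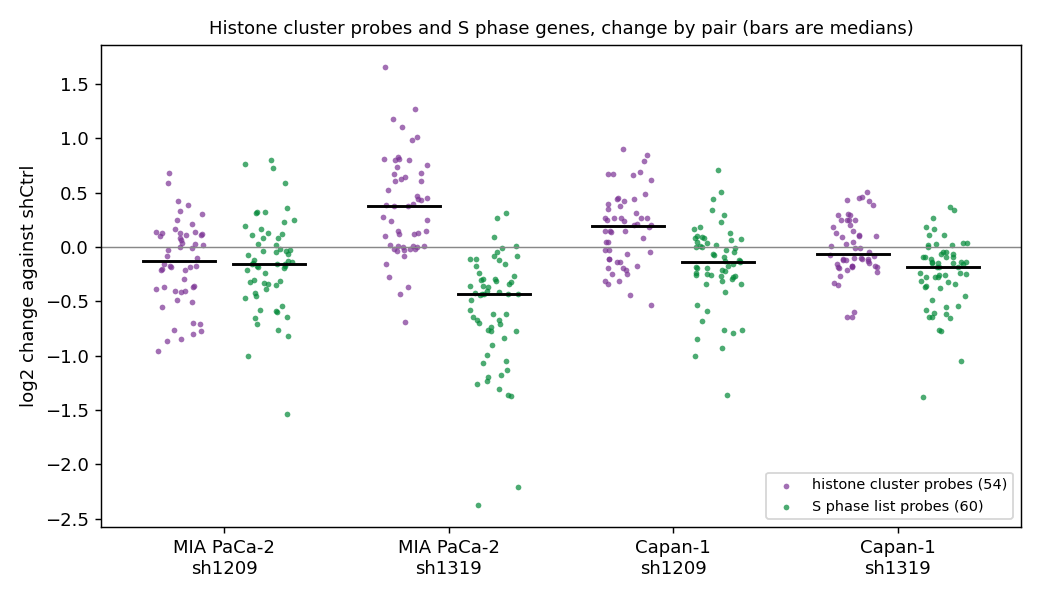
Log2 change against shCtrl of the 54 histone probes (purple) and the 60 probes of the S phase list (green) in each hairpin and cell line, with the median as a bar and points spread sideways for clarity. With sh1319 in MIA PaCa-2 the medians were 0.38 and -0.43.

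Genes for the transcription and end processing of histone mRNA (27 tested probes, 18 genes) had 2 rises and 7 falls in the combined comparison (7.41% and 25.9%, against 12.5% and 12.7% of all probes). The falls were in CCNE2, in CCNE1 (cyclin E1, -0.63, -0.56 and -0.42), in CDK2 (its kinase partner, -0.38 and -0.36) and in SLBP, the stem-loop binding protein (-0.36, adjusted p = 0.0027), whose other probe was not called (-0.17, adjusted p = 0.28). CCNE2 and SLBP are also in the S phase list. Both rises were in ERI1, an exonuclease of the histone mRNA end, also listed as THEX1 (0.32 and 0.52). NPAT, a coactivator of histone gene transcription, had a combined change of 0.32 (adjusted p = 0.093). Per hairpin the list had 2 rises and 5 falls with sh1319 in MIA PaCa-2, 4 and 5 with sh1209 there, and no rise with 5 and 4 falls with sh1209 and sh1319 in Capan-1. The rises were 7.41% and 14.8% of the list in MIA PaCa-2, against 12.2% and 9.05% of all probes. The falls were 18.5%, 18.5%, 18.5% and 14.8% in the same order, against 12.1%, 8.99%, 8.69% and 6.77%.

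Histone chaperones and assembly factors (27 probes, 21 genes) had 1 rise and 6 falls in the combined comparison (3.7% and 22.2%), among them ASF1A (-0.64, adjusted p = 9.5e-05), RBBP4 (-0.58, adjusted p = 0.0028) and DAXX (-0.40, adjusted p = 0.028). With sh1319 in MIA PaCa-2, 9 fell (33.3%, against 12.1% of all probes) and 1 rose. Between the lines 13 were lower in Capan-1 (48.1%, against 22.5%) and none higher, where 21 histone probes were higher. Variant histones outside the clusters, whose mRNAs are polyadenylated and made outside S phase too (18 probes, 12 genes), had 3 rises and 5 falls (16.7% and 27.8%). H2AFX, a variant that is phosphorylated at DNA breaks, rose by 0.80 in the combined comparison (adjusted p = 0.00053). By hairpin and line it was called only with sh1209 in MIA PaCa-2 (1.59). It changed by 0.46 with sh1319 there and by 0.60 and 0.56 with sh1209 and sh1319 in Capan-1. H2AFY2 (a macroH2A, -0.59) and CENPA (the centromeric H3, -0.50 and -0.34) fell in the combined comparison, and the probes of H2AFY (-0.32 and 0.44) disagreed. With sh1209 in MIA PaCa-2 the CENPA changes were positive and not called (0.14 and 0.26). Between the hairpins in MIA PaCa-2, 7 of these 18 probes were lower with sh1319 (38.9%, against 11.5%) and none higher, where 27 cluster probes were higher.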

How the data were processed

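Total RNA of 12 samples was labelled with the TotalPrep kit and hybridised to HumanHT-12 v4 BeadChips, all 12 arrays on 1 chip. The authors deposited 1 table of bead intensity per probe and array on a linear scale, neither background-subtracted nor normalized (lowest value 66.6), with a detection p-value for each, from GenomeStudio 2011.1 per the submitters' processing notes. Of its 47320 rows, 92 were spike-in controls and were set aside, 28 columns were empty, and 0 per-sample columns were left unused. Groups came from the sample labels, where sh1319 is also spelled shFAK1319 in Capan-1.

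Intensities were background-corrected with nec (normexp from detection p-values, offset 16) and quantile-normalized on the log2 scale in limma 3.58.1 (R 4.3.3). Probes with a detection p below 0.05 on at least 2 arrays were fitted with lmFit on the 6 group means and eBayes (residual degrees of freedom, 6). The Benjamini-Hochberg adjustment ran over all tested probes within each comparison, with a threshold of 0.05. The script was tested on simulated data. Every array value is given for probes called in the combined comparison with 1 sign in all 4 comparisons, the 10 largest combined changes, the 4 largest called changes per hairpin and line, the 5 largest interactions and cell line differences, and the 4 brightest members. HIST1H4C in MIA PaCa-2 with sh1319, HIST1H4K in Capan-1 with sh1209, and other genes named outside this rule were chosen after their values were seen. The members and gene lists were chosen with earlier results of these data known. The S phase list is that of Seurat 5.3.0. Alternatives were no background correction, other scalings, other filters, array weights, a replicate block, a fit of 1 line, the methods' t-test and leaving out each array. The interactions per hairpin and the scaling over probes detected on all arrays were added after seeing the data.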

Additional observations from a re-analysis of the deposited data

Results flagged for a closer look

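The change with knockdown differed between the cell lines, by limma's interaction term, for HIST2H2AA3 (0.82 on the log2 scale, probe 1820592) and HIST2H4A (0.67), with the higher change in MIA PaCa-2, and for HIST1H4E (-0.62) and HIST1H3D (-0.52), with the higher change in Capan-1. HIST1H3D was not detected in MIA PaCa-2, and HIST1H4E was not detected there with sh1209, so the size of both differences is uncertain. These 4 probes were 7.41% of the histone probes, against 14.4% of all probes. For sh1209 alone 8 histone probes (14.8%, as over all probes in either direction) differed in this way. All were lower in MIA PaCa-2, where 7.44% of all probes were lower. For sh1319 alone 14 differed (25.9%, against 14% of all probes in either direction). All were higher in MIA PaCa-2, where 7.1% of all probes were higher. Remaining PTK2 by its bright probe ranged from 17.9% of control with sh1319 in MIA PaCa-2 to 65.4% with sh1209 in Capan-1. By the dim PTK2 probe, with no change called, it ranged from 72.7% with sh1209 in Capan-1 to 124% with sh1209 in MIA PaCa-2. The part of PTK2 in these differences was not tested.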

How the results depend on the processing

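Of 39 called changes of named members, 20 were called under every alternative followed for single members and 19 were lost in at least 1. The t-test and the fit of 1 line were followed only for the counts of called probes, not for single members. No called histone probe turned sign. The main counts of called histone probes were 11 and 24 with sh1209 and sh1319 in MIA PaCa-2, 10 and 3 with the same hairpins for Capan-1, 16 combined, 4 for the interaction, 25 between lines, and 29 and 8 between hairpins in that order of lines. Median scaling gave 5 for sh1209 in MIA PaCa-2, 0 for the interaction, 3 between hairpins in Capan-1 and 6 in place of 14 for the interaction of sh1319, and -0.42 for PTK2 with sh1209 in Capan-1. Scaling to the probes detected on all arrays gave 3 and 14 in MIA PaCa-2, 1 for sh1319 in Capan-1, 2 for the interaction, 18 and 3 between hairpins, and 5 and 8 for the interactions of sh1209 (8) and sh1319 (14). No background correction gave 8 for sh1319 in Capan-1 and 14 for the interaction of sh1209, the stricter filter gave 6 for sh1319 in Capan-1, array weights 5, and the fit of 1 line 5 there and 7 for sh1209 in MIA PaCa-2. The stricter filter and no filter each gave 6 for the interaction. No background correction gave 12 between hairpins in Capan-1. The scaling to probes detected on all arrays gave 11 combined.

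The methods' t-test after Benjamini-Hochberg called 0 in each of the 4 comparisons with shCtrl and in both between hairpins, and 11 between lines; unadjusted it called 9, 15, 12 and 7, then 22 and 9, and 23. Leaving out 1 array gave 7 to 11 and 18 to 24 calls for MIA PaCa-2, 4 to 11 and 0 to 4 for Capan-1, 10 to 17 combined, 0 to 3 for the interaction, 23 to 26 between lines, 20 to 31 and 2 to 8 between hairpins, and 3 to 10 and 8 to 14 for the interactions of sh1209 and sh1319. PTK2 ranged from -2.31 to -2.18, -2.53 to -2.43, -0.70 to -0.52 and -1.87 to -1.69. The combined change of HIST2H2AA4, not called at 0.01, was 0.00 with scaling to the probes detected on all arrays and -0.02 to 0.04 without 1 array. The replicate numbers showed little pairing after normalization (correlations of deviations from -0.06 to 0.16, with 1 of 15 pairs of groups over 0.1). With 2 arrays per group this cannot exclude a pairing, and the deposited median intensity was higher on replicate 2 in every group. The replicate block gave 11, 23, 9 and 5 for the comparisons with shCtrl, 16 combined, 3 for the interaction, 25 between lines, 28 and 8 between hairpins, and 8 and 14 for the interactions per hairpin. The cause of these changes was not tested. With 2 arrays per group the number of arrays limits the precision, and members near the lowest detected level of 4.55 to 4.74 have compressed changes.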
